A study of Homo sapiens with 6 samples.

Results

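The mitochondrial ribosomal proteins were followed in K562 cells, an established chronic myeloid leukemia line with erythroid features. Their genes were taken from the deposited count table as every protein coding row whose symbol begins with MRPL or MRPS and a digit, together with DAP3 and PTCD3, which carry names of their own. The rule found 80 of 24960 genes, and no measured value entered it. Of these, 51 encode proteins of the large subunit and 28 encode proteins of the small subunit. MRPS18A and MRPS30 were counted with the large subunit, where they lie in the assembled ribosome despite their symbols. MRPS36 was given apart, since its product is a subunit of the 2-oxoglutarate dehydrogenase complex. Total RNA was sequenced from 3 control libraries and 3 libraries of cells given hyperoside, a flavonol glycoside of medicinal plants, at 2 mM, a dose stated by the study but not by the sample labels. The comparison asked how hyperoside changed the transcripts of a leukemia line. Both groups were the same cell line with no other treatment named, the time in hyperoside before extraction is not given in the sources used here, and no label says whether replicates came from separate cultures, so the p-values measure the spread between these libraries, which may be technical.

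The mitochondrial ribosome translates the few messenger RNAs that mitochondrial DNA encodes, all of them for membrane subunits of the respiratory chain and ATP synthase. All of its proteins are encoded in the nucleus, made in the cytosol and imported, while its ribosomal RNAs come from mitochondrial DNA. The small subunit binds the messenger RNA and reads the codons, and the large subunit joins the amino acids and passes the nascent chain to the inner membrane. Several of its proteins have no bacterial counterpart, and every protein is needed in a fixed proportion in the finished particle.

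Library totals on genes ran from 35613283 to 36754725 counts. All 10 K562 markers fixed for this work were detected in every library, with the embryonic globin HBE1 between 3339 and 5437 FPKM and the erythroid factor GATA1 between 88.0 and 105.8 FPKM, where FPKM is the count scaled to gene length and library total. Of the markers of other cell types, CD2, MS4A1, CD14 and CD79A were at 0 in at least 1 library with at most 2, 1, 7 and 11 counts, whereas CD3D, LYZ and EPCAM had over 1000 counts in every library. Control replicate 1 had the lowest TMM factor (0.957) and the highest summed level among control libraries in every list summed, with 122529 CPM for cytosolic ribosomal proteins against 109015 and 107946 CPM in control replicates 2 and 3. The summed level of the 51 large subunit genes was 3072 CPM there, where CPM is the count scaled to a common library size with TMM, and 2746 and 2687 CPM in control replicates 2 and 3, against 2635, 2799 and 2694 CPM in the hyperoside libraries. The 27 tested small subunit genes summed to 2130, 1910 and 1891 CPM in the control libraries and 1814, 1923 and 1825 CPM in the hyperoside libraries. The groups overlapped in both sums.

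Many of these transcripts differed a little between the groups and none of them strongly. At an adjusted p under 0.05 in edgeR's quasi-likelihood test, 11 of 79 tested members (13.9%) rose, beside 22.1% of all tested genes, and 21 (26.6%) fell, beside 23.2% of all tested genes. MRPS18A, a large subunit protein, rose the most, 1.60-fold, and MRPL55, of the same subunit, fell the most, to 62.7% of the control level. The other 47 members did not pass the test. No member passed an adjusted p under 0.05 together with a fold change above 2, beside 10.2% of all tested genes. DESeq2 and limma-voom also gave 0, and of the 36 members with an unadjusted p under 0.05 none passed that fold change. The shares called in either direction lay near or below those of all genes.

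The sizes of the differences were small in the whole group. The log2 fold change, hyperoside minus control, ran from -0.67 to 0.67, and its median size without regard to sign was 0.18, beside 0.33 over the 15095 tested genes. Cytosolic ribosomal proteins, at 0.18, and the nuclear respiratory chain and ATP synthase genes, at 0.146, were as small by this measure. Of the members, 76 (96.2%) lay within 0.5 of 0, beside 66.0% of all tested genes, 98.8% of the cytosolic ribosomal proteins and 97.6% of the respiratory chain and ATP synthase genes. Of the 47 members that were not called, 44 had a 95% confidence interval wholly within 0.5 either way, so that larger differences than that were outside the interval. The exceptions were MRPL46, MRPL58 and MRPS28. In 42 members the libraries of the groups did not overlap in normalised count, 53.2% of the members beside 54.4% of all tested genes, and hyperoside was higher in 16 of these and lower in 26. All 32 called members were among them.

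**Figure D1:**
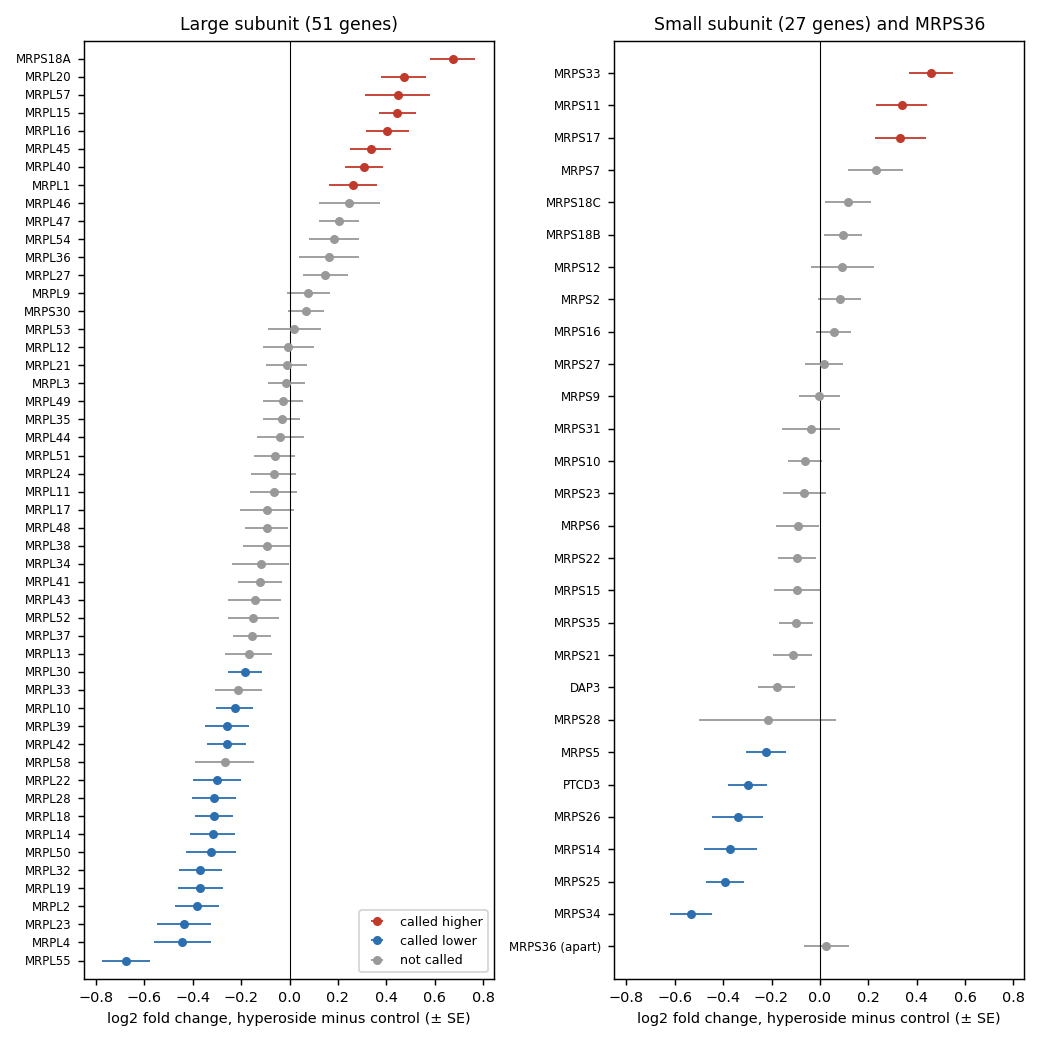
Log2 fold change of each tested member (hyperoside minus control, x axis, with its standard error) for the large subunit on the left and for the small subunit and MRPS36 on the right, coloured by the call at an adjusted p under 0.05. The values run from -0.67 for MRPL55 to 0.67 for MRPS18A, with 11 members called higher and 21 called lower.

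In the large subunit, 8 of 51 genes (15.7%) rose and 15 (29.4%) fell, beside 22.1% and 23.2% of all tested genes. The other 28 genes of this subunit were not called. The median log2 fold change was -0.09, beside 0.00316 for all tested genes. It became 0.01 without control replicate 1 and -0.06 without hyperoside replicate 3. With library totals only it was -0.04, beside 0.05 for all tested genes, with upper quartile scaling -0.05, and on the log2(FPKM + 1) scale -0.03. Leaving out control replicate 1 also moved the counts, to 16 members in all that rose and 17 that fell. Without hyperoside replicate 1 or without hyperoside replicate 3, 12 members in all fell.

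MRPS18A (chr6:43671202-43687791, minus strand) is 1 of 3 human relatives of bacterial ribosomal protein S18, and its product has moved to the large subunit. Its level was 23.0, 21.9 and 19.5 FPKM in the control libraries and 35.0, 36.2 and 35.2 FPKM in the hyperoside libraries. Every hyperoside library lay above every control library. The log2 fold change was 0.67 (SE 0.09, adjusted p = 1.52e-05). RSPH9, whose exons overlap it on the opposite strand, had at most 7 counts in any library. MRPL55 (chr1:228106685-228109299, minus strand) stood at the other end. It was at 29.3, 24.3 and 27.7 FPKM in the control libraries and at 17.8, 16.9 and 18.1 FPKM in the hyperoside libraries. These groups did not overlap either, and the log2 fold change was -0.67 (SE 0.10, adjusted p = 2.63e-05). The 150 bases before the annotated start of both genes are shown, since they carried the largest changes in each direction. They were read 5′ to 3′ on the minus strand of GRCh38.p14 from RefSeq, at chr6:43687792-43687941 for MRPS18A and at chr1:228109300-228109449 for MRPL55, and no bases are marked.
MRPS18A: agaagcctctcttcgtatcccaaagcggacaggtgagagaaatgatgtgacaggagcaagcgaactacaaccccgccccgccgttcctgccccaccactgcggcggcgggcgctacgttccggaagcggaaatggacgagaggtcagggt
MRPL55: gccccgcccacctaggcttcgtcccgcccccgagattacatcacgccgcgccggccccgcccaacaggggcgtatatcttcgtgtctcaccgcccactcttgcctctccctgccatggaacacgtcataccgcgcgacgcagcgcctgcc
Both runs were rich in G and C, at 61.3% for MRPS18A and 68.7% for MRPL55.

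The other large subunit genes that rose included several of bacterial descent. MRPL20 (chr1:1401909-1407293, minus strand), the counterpart of bacterial L20, was at 51.2, 45.8 and 45.6 FPKM in the control libraries and at 64.6, 75.9 and 64.5 FPKM in the hyperoside libraries. Its log2 fold change was 0.47 (SE 0.09, adjusted p = 0.000449). MRPL20-AS1, a separate row named for its antisense position and noticed after its values were seen, had a log2 fold change of 0.30 (adjusted p = 0.0221), and since the use of strand in counting is not given in the sources used here, reads of overlapping genes on opposite strands cannot be told apart. MRPL15, the counterpart of L15, was at 21.7, 22.6 and 23.3 FPKM in the control libraries and at 31.8, 32.1 and 31.4 FPKM in the hyperoside libraries. Within each group these libraries differed by less than 2 FPKM, and the log2 fold change was 0.45 (SE 0.08, adjusted p = 0.000153). MRPL16 (chr11:59806140-59810778, minus strand), a counterpart of L16, which lies near the transfer RNA sites, was at 77.0, 71.9 and 68.3 FPKM in the control libraries and at 95.1, 111.4 and 91.2 FPKM in the hyperoside libraries. Its log2 fold change was 0.40 (SE 0.09, adjusted p = 0.00121).

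MRPL57, a small mitochondria-specific protein, had the third lowest level of the group, 4.99 FPKM (SD 0.57, n = 3) in the control libraries. It rose to 7.05 FPKM (SD 0.97, n = 3) with a log2 fold change of 0.45 (SE 0.13, adjusted p = 0.0118), a call that was lost without control replicate 3 and without hyperoside replicate 1. MRPL45, which lies at the exit of the nascent chain and helps to hold the ribosome at the inner membrane, rose with a log2 fold change of 0.33 (SE 0.09, adjusted p = 0.00433). MRPL40 was already among the more abundant members, at 83.9, 81.1 and 75.8 FPKM in the control libraries, and stood at 101.6, 103.8 and 103.4 FPKM in the hyperoside libraries. With a log2 fold change of 0.31 (SE 0.08, adjusted p = 0.00343) its groups were well apart.

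The large subunit genes that fell also included counterparts of bacterial proteins. MRPL23 (chr11:1947332-2014944, plus strand), the counterpart of L23 at the tunnel exit, was at 16.3, 12.9 and 12.6 FPKM in the control libraries and at 10.1, 11.4 and 10.5 FPKM in the hyperoside libraries. Control replicate 1 was the highest, and the groups did not overlap (log2 fold change -0.44, SE 0.11, adjusted p = 0.00347). MRPL2 (chr6:43054029-43059863, minus strand), the counterpart of L2 near the peptidyl transferase centre, was at 58.3, 46.8 and 50.1 FPKM in the control libraries and at 40.0, 42.7 and 40.7 FPKM in the hyperoside libraries. Its log2 fold change was -0.38 (SE 0.09, adjusted p = 0.00248). MRPL32 (chr7:42932376-42937857, plus strand), whose precursor is cut by the m-AAA protease before it enters the ribosome, was at 64.8, 58.0 and 59.7 FPKM in the control libraries and at 47.0, 48.7 and 50.7 FPKM in the hyperoside libraries. Every hyperoside library was below every control library (log2 fold change -0.37, SE 0.09, adjusted p = 0.00241). PSMA2, which overlaps MRPL32 on the opposite strand, had a log2 fold change of -0.24 (adjusted p = 0.00837), and its part in the count of MRPL32 was not tested.

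MRPL18 (chr6:159789812-159798429, plus strand), a protein of the central protuberance, had the second highest level of the group, at 109.1, 101.0 and 97.5 FPKM in the control libraries. It was at 85.9, 85.9 and 84.7 FPKM in the hyperoside libraries, with a log2 fold change of -0.31 (SE 0.08, adjusted p = 0.00331). MRPL19, the counterpart of L19, fell from a mean of 8.50 FPKM (SD 1.09, n = 3) to 6.80 FPKM (SD 0.49, n = 3), with a log2 fold change of -0.37 (SE 0.09, adjusted p = 0.00341), a call lost on the log2(FPKM + 1) scale. MRPL4, the counterpart of L4 and named after its values were seen, fell with a log2 fold change of -0.44 (SE 0.12, adjusted p = 0.00512).

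**Figure D2:**
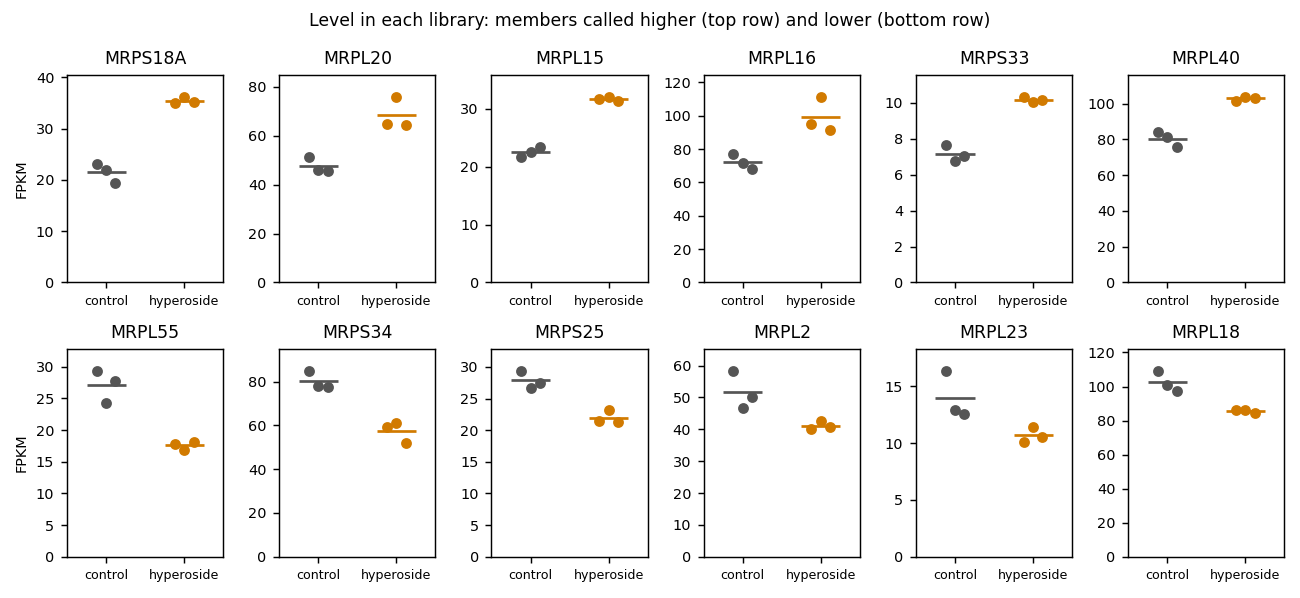
FPKM (y axes, from 0) in each of the 3 control and 3 hyperoside libraries for 6 members called higher (top) and 6 called lower (bottom), with a line at each group mean. In every panel the groups do not overlap, as in MRPS18A with 19.5 to 23.0 FPKM in the control libraries and 35.0 to 36.2 FPKM in the hyperoside libraries.

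Several well-known genes of the large subunit did not pass the test. MRPL12, the stalk protein that meets the translation factors, was at 69.3, 60.4 and 54.2 FPKM in the control libraries and at 57.2, 69.4 and 63.4 FPKM in the hyperoside libraries. These ranges overlapped almost fully, and the log2 fold change of -0.00455 (95% confidence interval -0.22 to 0.21, adjusted p = 0.975) took either sign under other scalings. MRPL58, a release factor relative that frees stalled chains, was at 35.0, 24.2 and 28.5 FPKM in the control libraries and at 24.3, 26.4 and 24.7 FPKM in the hyperoside libraries, with the highest value again in control replicate 1. Its log2 fold change was -0.27 (95% confidence interval -0.52 to -0.01, adjusted p = 0.0790). MRPL37 had a log2 fold change of -0.16 (SE 0.08, adjusted p = 0.111) and MRPL41 one of -0.12 (SE 0.09, adjusted p = 0.294). MRPS30, a mitochondria-specific protein of the large subunit, had a log2 fold change of 0.07 (SE 0.07, adjusted p = 0.493).

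In the small subunit, 3 of 27 tested genes (11.1%) rose and 6 (22.2%) fell, beside 22.1% and 23.2% of all tested genes. The other 18 genes of this subunit were not called. The median log2 fold change was -0.07, and it was -0.02 without control replicate 1, -0.01 without hyperoside replicate 1, -0.11 without control replicate 3 and -0.01 with library totals only. Leaving out control replicate 1 gave 5 genes that rose, leaving out hyperoside replicate 2 gave 1, and leaving out hyperoside replicate 3 gave 3 genes that fell.

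MRPS34 (chr16:1771895-1773134, minus strand), a mitochondria-specific protein of the small subunit in which mutations cause Leigh syndrome, fell the most. It was at 84.8, 78.0 and 77.6 FPKM in the control libraries and at 59.3, 60.9 and 52.0 FPKM in the hyperoside libraries. The gap between the groups was wider than the spread within either, and the log2 fold change was -0.53 (SE 0.09, adjusted p = 6.95e-05). MRPS25 (chr3:15042251-15065315, minus strand), another mitochondria-specific protein, was at 29.3, 26.7 and 27.5 FPKM in the control libraries and at 21.5, 23.2 and 21.2 FPKM in the hyperoside libraries. Its log2 fold change was -0.39 (SE 0.08, adjusted p = 0.000448), while NR2C2, which overlaps it on the opposite strand, had a log2 fold change of 0.32 (adjusted p = 0.00611). MRPS14, the counterpart of bacterial S14 in the head of the subunit, was at 14.5, 14.6 and 16.6 FPKM in the control libraries and at 13.4, 13.2 and 10.02 FPKM in the hyperoside libraries. The log2 fold change of -0.37 (SE 0.11, adjusted p = 0.0104) was not called without hyperoside replicate 3 or on the log2(FPKM + 1) scale, and CACYBP on the opposite strand fell as well, with a log2 fold change of -0.46 (adjusted p = 3.71e-05). The part of CACYBP in the count of MRPS14 was not tested.

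PTCD3 (chr2:86106235-86142157, plus strand), a pentatricopeptide protein at the entry of the messenger RNA channel, fell with a log2 fold change of -0.30 (SE 0.08, adjusted p = 0.00584), a call lost without hyperoside replicate 3. DAP3, a GTP-binding protein of the head first described in cell death, had the highest level of the group, at 120.7, 105.5 and 106.4 FPKM in the control libraries and at 97.9, 102.8 and 103.9 FPKM in the hyperoside libraries. Its groups did not overlap but lay close together, and it did not pass the test (log2 fold change -0.18, SE 0.08, adjusted p = 0.0686). MRPS26 had a log2 fold change of -0.34 (SE 0.11, adjusted p = 0.0135) and MRPS5, the counterpart of S5, one of -0.22 (SE 0.08, adjusted p = 0.0384). Both fell, and the call of MRPS26 was lost without hyperoside replicate 1 and without hyperoside replicate 2, that of MRPS5 in 9 of 16 alternative fits. MRPS12, the counterpart of S12 at the decoding centre, had a log2 fold change of 0.09 (SE 0.13, adjusted p = 0.588).

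The 3 small subunit genes that rose all had control levels under 10 FPKM. MRPS33 (chr7:141002610-141014952, minus strand), a mitochondria-specific protein, was at 7.64, 6.76 and 7.07 FPKM in the control libraries and at 10.3, 10.1 and 10.2 FPKM in the hyperoside libraries. The hyperoside libraries were close together and all above the control libraries (log2 fold change 0.46, SE 0.09, adjusted p = 0.000479). MRPS11, the counterpart of S11 on the platform of the subunit, went from a mean of 4.40 FPKM (SD 0.17, n = 3) to 5.75 FPKM (SD 0.64, n = 3), a log2 fold change of 0.34 (SE 0.11, adjusted p = 0.0143). MRPS17, the counterpart of S17, went from 9.48 FPKM (SD 0.72, n = 3) to 12.3 FPKM (SD 0.89, n = 3), a log2 fold change of 0.33 (SE 0.11, adjusted p = 0.0155). Without hyperoside replicate 2, neither MRPS11 nor MRPS17 was called, and MRPS11 was not called without control replicate 3 either.

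MRPS28 and MRPS24 were barely counted. MRPS28 had 89, 75 and 112 counts in the control libraries and 55, 97 and 93 in the hyperoside libraries, and its interval was wide (log2 fold change -0.22, 95% confidence interval -0.81 to 0.38, adjusted p = 0.564). Its exons overlap those of AC036214.3, a protein coding gene on the same strand, whose part in the count of MRPS28 was not tested. MRPS24 (chr7:43866558-43869517, minus strand) had 1 count in hyperoside replicate 1 and 0 in the other libraries, and a count of 0 allows up to 3 counts, a limit that covers counting error only. It was not tested. Its whole span lies within the readthrough gene URGCP-MRPS24 (chr7:43866558-43906596), and how reads on both genes were counted is not given in the sources used here. The deposited counts hold no row for that readthrough gene. MRPS36 had a log2 fold change of 0.03 (SE 0.09, adjusted p = 0.840) and was not called.

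The levels of the members, compared per gene length, spread over a wide range in these cells. Over the 79 tested members the mean control FPKM ran from 3.05 for MRPS28 to 110.9 for DAP3, a 36.3-fold range, with a median of 33.1 in the control and 33.8 in the hyperoside libraries. DAP3, MRPL18 at 102.5 and MRPL37 at 90.3 were the highest. MRPS28, MRPS11 at 4.40 and MRPL57 at 4.99 were the lowest. The part of the same-strand overlap of MRPS28 in its low level, and so in this range, was not tested. The control libraries of DAP3 (105.5 to 120.7 FPKM) and MRPL18 (97.5 to 109.1 FPKM) overlapped, so these neighbours in the order did not differ beyond their spread. The median control level was 34.2 FPKM in the large and 27.9 FPKM in the small subunit. Across the members, the log2 fold change had a Spearman rho of -0.07 with control FPKM and of -0.18 with the gene length behind the FPKM, as a description over 79 genes that share the same 6 libraries.

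**Figure D3:**
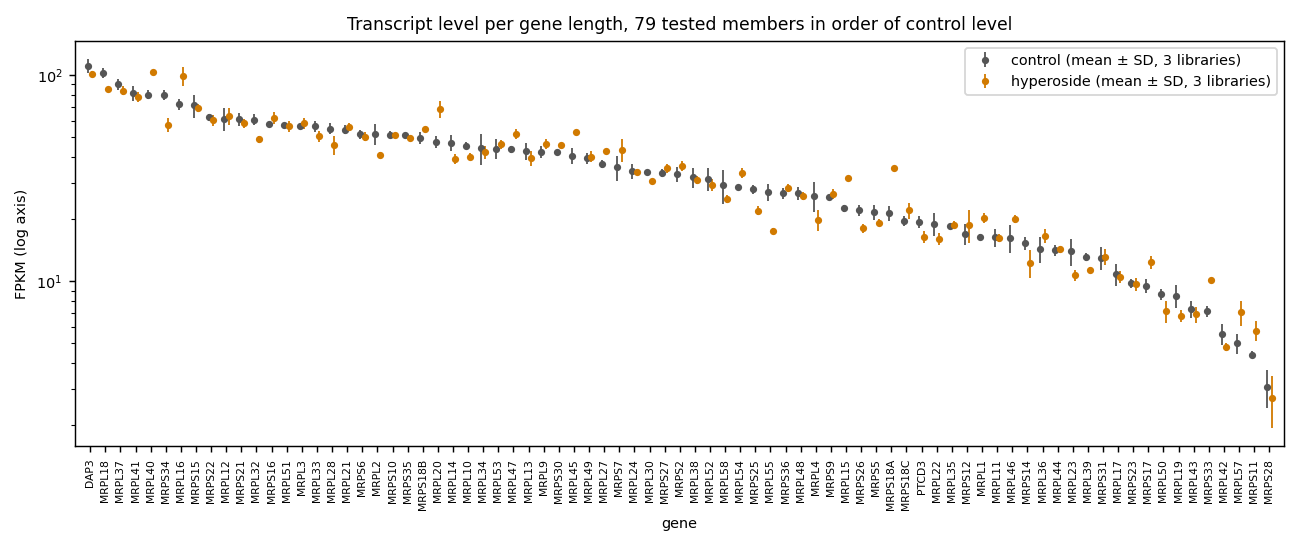
Mean FPKM with SD (y axis, logarithmic) of the 79 tested members in the 3 control and 3 hyperoside libraries, ordered by control level. The order runs from DAP3 at 110.9 FPKM to MRPS28 at 3.05 FPKM, and at most genes the means of both groups lie close together beside this range.

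The relatives of bacterial S18 did not move alike. MRPS18B, a small subunit protein, was at 52.9, 46.6 and 49.4 FPKM in the control libraries and at 54.0, 54.6 and 56.3 FPKM in the hyperoside libraries (log2 fold change 0.10, SE 0.08, adjusted p = 0.332). MRPS18C, the relative that keeps the place of bacterial S18 in the small subunit, was at 18.4, 20.2 and 20.4 FPKM in the control libraries and at 21.2, 24.3 and 20.6 FPKM in the hyperoside libraries (log2 fold change 0.12, SE 0.09, adjusted p = 0.331). Neither passed the test, while MRPS18A did. The log2 ratio of MRPS18A to MRPS18B was -1.20, -1.09 and -1.34 in the control libraries and -0.62, -0.59 and -0.68 in the hyperoside libraries. It was higher by 0.58 with hyperoside, and the groups did not overlap (two-sided exact permutation test, p = 0.1, the smallest p that 3 against 3 libraries allow). The ratio of MRPS18A to MRPS18C was higher by 0.57 (two-sided exact permutation p = 0.1), and that of MRPS18C to MRPS18B differed by 0.01 (two-sided exact permutation p = 0.9). These 3 ratios were the only ones tested between members, and none can pass 0.05 in this design.

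The balance of the subunits was described without a test. The summed counts of the small subunit divided by those of the large subunit were 0.693, 0.695 and 0.704 in the control libraries and 0.688, 0.687 and 0.678 in the hyperoside libraries. The groups did not overlap, yet their means of 0.697 (SD 0.00536, n = 3) and 0.684 (SD 0.00584, n = 3) were close. By summed FPKM, added after seeing the data, the ratio was 0.502, 0.506 and 0.518 in the control libraries and 0.489, 0.492 and 0.481 in the hyperoside libraries. Over the members with no exon overlap, likewise added, it was 0.617, 0.629 and 0.613 in the control and 0.586, 0.570 and 0.576 in the hyperoside libraries, with means of 0.620 and 0.577, further apart than over all members. When MRPS18A and MRPS30 were moved to the small subunit by their symbols, also added after seeing the data, the ratio was 0.766, 0.773 and 0.781 in the control and 0.784, 0.777 and 0.773 in the hyperoside libraries. The groups then overlapped and the difference changed sign, so over all members the direction rested on where these proteins were counted. The members with no exon overlap leave out MRPS18A, and there the ratio was lower with hyperoside.

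**Figure D4:**
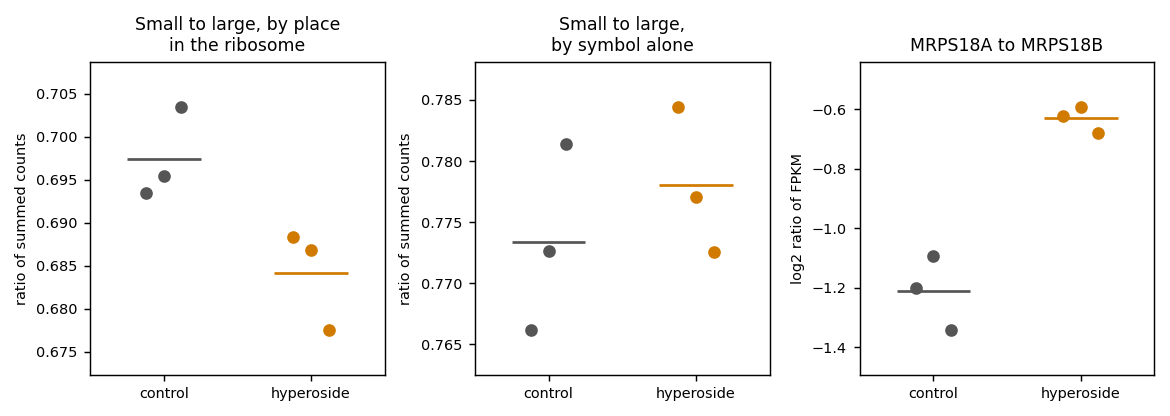
Ratio of summed small to large subunit counts by place in the ribosome (left) and by symbol alone (middle), and log2 ratio of MRPS18A to MRPS18B FPKM (right), for each of the 3 control and 3 hyperoside libraries with a line at the mean; the y axes do not start at 0. The groups are apart on the left (0.693 to 0.704 against 0.678 to 0.688) and on the right, and overlap in the middle.

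The promoter sequences of the members shared letters that the choice of genes had not used. RefSeq gave 250 bases before and 50 after the first listed start of 72 of the 80 members, while none was at hand for MRPL10, MRPL13, MRPL15, MRPL2, MRPL21, MRPL23, MRPL35 and MRPS28. Binding letters were searched on both strands, and none of the strings contains another. The letters AAGATGGCG, known for the factor YY1, which acts on many genes of mitochondria, were in 14 of 72 members (19.4%), against 1.85% of all 27305 promoters of the table and 3.70% of the 11952 promoters of tested genes. The letters CCGGAAGT, known for ETS factors such as GABP, were in 11 members (15.3%), against 4.44% of all promoters and 8.38% of those of tested genes. GCATGCGC, known for NRF1, was in 6 members (8.33%), against 3.27% and 5.62%. At least 1 of these was in 25 members (34.7%), against 8.90% of all promoters. That share was not computed for the promoters of tested genes, which held each of these strings more often than all promoters did. The letters of the E-box, CACGTG, were in 7 members (9.72%, against 7.43% of all promoters and 9.86% of those of tested genes), those of the CCAAT box in 21 (29.2%, against 35.7% and 36.8%) and those of the TATA box, TATAAA, in 3 (4.17%, against 11.95% and 6.16%). The cyclic AMP response element, TGACGTCA, was in 0 of 72 members, against 1.98% of all promoters and 3.196% of those of tested genes. A match is a description of the letters and not evidence of binding.

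Members with the YY1 letters were found among genes that rose, fell or were not called, in 1 of 10, 5 of 18 and 7 of 43 promoters. The ETS letters were in 2 of 10 that rose, 1 of 18 that fell and 8 of 43 not called. The windows of the called members that hold either string are shown, 30 bases each and 5′ to 3′ on the strand of the gene in GRCh38.p14 from RefSeq, with the YY1 letters or their reverse complement in capitals.
MRPS18A, chr6:43687763-43687792, minus strand, rose: taggtttttgAAGATGGCGgccctcaaggc
MRPL22, chr5:154941093-154941122, plus strand, fell: gtagcgggagggcgaAAGATGGCGgcggca
MRPL32, chr7:42932143-42932172, plus strand, fell: acccgcgctcCGCCATCTTtacccgaagag
MRPL42, chr12:93467512-93467541, plus strand, fell: ggattgaaacAAGATGGCGggttcgtggtg
MRPL50, chr9:101398576-101398605, minus strand, fell: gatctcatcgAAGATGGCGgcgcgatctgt
PTCD3, chr2:86106235-86106264, plus strand, fell: agagaaatcaAAGATGGCGgttgtatctgc
In 5 of these 6 windows the letters lie within the 50 bases after the annotated start, and MRPL32 is the exception. The windows with the ETS letters or their reverse complement in capitals follow.
MRPL16, chr11:59810767-59810796, minus strand, rose: gagtgaacacaACTTCCGGccccactgagc
MRPL20, chr1:1407319-1407348, minus strand, rose: cgaccttcgccCCGGAAGTatcgcaggggc
MRPS34, chr16:1773136-1773165, minus strand, fell: ctcttccggtgACTTCCGGccggaccgctg
The ETS letters thus began before the start of genes that rose and of a gene that fell.

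Of the regulators known for these genes, 10 of 11 listed were tested, and 2 rose (20%, beside 22.1% of all tested genes) and 1 fell (10%, beside 23.2%). The count that rose was 1 without control replicate 3, without hyperoside replicate 2 or without hyperoside replicate 3. GABPB2 and GABPB1 encode alternative partner subunits of GABP. GABPB2 rose with a log2 fold change of 1.07 (SE 0.12, adjusted p = 9.51e-07) and GABPB1 fell with -0.40 (SE 0.09, adjusted p = 0.00122). GABPB2 was low, at a mean of 0.94 FPKM in the control and 2.06 FPKM in the hyperoside libraries. GABPA, the gene of the other GABP subunit, was not called (log2 fold change -0.18, adjusted p = 0.249). YY1 itself had a log2 fold change of 0.11 (adjusted p = 0.228) and NRF1 one of -0.18 (adjusted p = 0.209).

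Genes that build and serve the ribosome moved in both directions. The 3 ribosomal proteins with other symbols, GADD45GIP1, AURKAIP1 and CHCHD1, were not called. Of 30 assembly and ribosomal RNA modification factors, 6 rose (20%) and 9 fell (30%), beside 22.1% and 23.2% of all tested genes. Their median log2 fold change was -0.00119, and its sign depended on the scaling. DDX28, a helicase of large subunit assembly, rose from 368, 312 and 269 counts in the control libraries to 724, 736 and 689 in the hyperoside libraries (log2 fold change 1.13, SE 0.13, adjusted p = 1.58e-06). MPV17L2, an inner membrane protein needed for assembly, fell from 929, 840 and 793 counts to 428, 492 and 516 (log2 fold change -0.88, SE 0.11, adjusted p = 7.02e-06). Both were apart by more than any difference among the ribosomal proteins themselves. Of 18 translation factors, 8 rose (44.4%) and 4 fell (22.2%). But 4 rose without control replicate 2, 3 without hyperoside replicate 2, and 5 without control replicate 3 or with the replicate block. OXA1L, the insertase that receives the nascent chain, rose with a log2 fold change of 0.50 (SE 0.07, adjusted p = 2.90e-05), and TUFM, the elongation factor that brings the transfer RNA, fell with -0.32 (SE 0.08, adjusted p = 0.00390). Of 17 mitochondrial aminoacyl-tRNA synthetases, 4 rose and 4 fell (23.5% each), near the shares of all tested genes. Of 19 genes of mitochondrial transcription, replication and RNA processing, 1 rose (5.26%, and 3 genes without control replicate 1) and 6 fell (31.6%). Among those that fell was the RNA polymerase POLRMT with a log2 fold change of -0.53 (SE 0.09, adjusted p = 7.31e-05).

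The messenger RNAs that this ribosome translates were also counted. Of the 13 genes encoded in mitochondrial DNA, 9 rose and 1 fell, with a median log2 fold change of 0.29 that stayed between 0.22 and 0.38 in the 16 alternative fits. CYTB, a subunit of complex III, rose from 64867, 56366 and 57754 counts in the control libraries to 119537, 145511 and 124559 in the hyperoside libraries (log2 fold change 1.08, SE 0.08, adjusted p = 9.46e-09). ND6 was the gene that fell, with -0.32 (SE 0.12, adjusted p = 0.0384), its groups overlapped, and it was not called by DESeq2. Its call was also lost with upper quartile scaling, with library totals only, at a mean of at least 50 counts and on both FPKM scales. The same held without control replicate 2, without hyperoside replicate 1 and without hyperoside replicate 3. The nuclear subunits of the respiratory chain and ATP synthase, partners of these products, gave 2 that rose and 16 that fell of 84, with a median of -0.13 that was -0.05 without control replicate 1, -0.08 with library totals only and -0.07 on the log2(FPKM + 1) scale. Of 85 cytosolic ribosomal proteins, 47 fell and 38 were not called, with a median of -0.18. The number that fell ran from 13 to 55 over the alternative fits, with 24 without control replicate 1, 15 without hyperoside replicate 1 and 16 without hyperoside replicate 2. Of the nuclear respiratory chain and ATP synthase genes, 10 rose and 15 fell without control replicate 1, 28 fell without control replicate 3 and 10 fell without hyperoside replicate 1. These counts stand beside 22.1% higher and 23.2% lower over all tested genes, and the difference between lists was not tested. The SD of the log2 fold changes was 0.26 over the 79 mitochondrial ribosomal proteins, 0.25 over the 84 respiratory chain and ATP synthase genes and 0.10 over the 85 cytosolic ribosomal proteins, as a description.

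**Figure D5:**
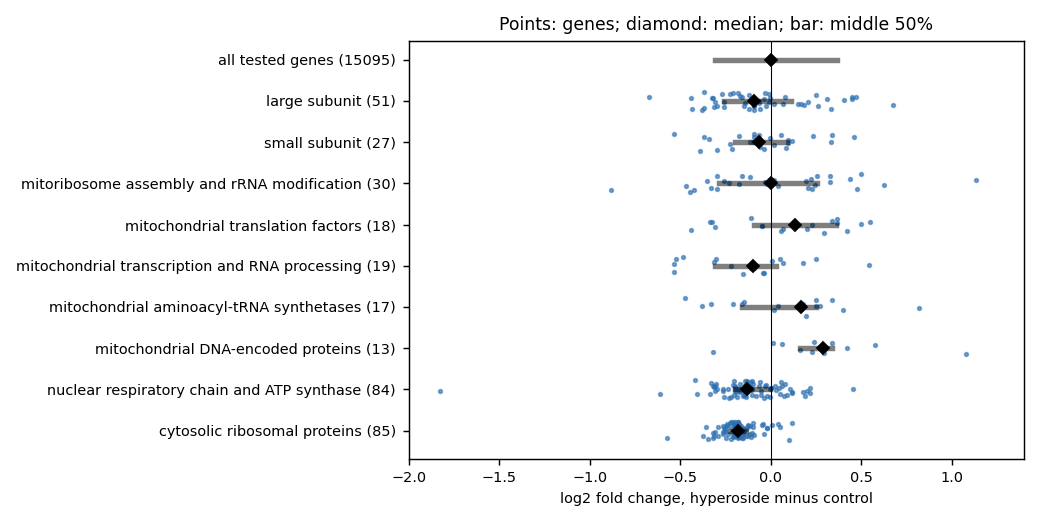
Log2 fold change (hyperoside minus control, x axis) of the genes of each list, with a diamond at the median and a grey bar over the middle 50%, and the bar and diamond alone for all 15095 tested genes. The large and small subunit lie on both sides of 0 with medians of -0.09 and -0.07, the genes of mitochondrial DNA lie mostly above 0, and the cytosolic ribosomal proteins mostly below.

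In RNA from a whole culture, a lower level in every cell and fewer cells holding the transcript cannot be told apart. Exons of 42 of the 80 members overlap those of another gene in GENCODE 29, 30 on the opposite strand and 16 on the same strand, some on both. Called members with a same-strand overlap included MRPS17 with NIPSNAP2 and MRPS5 with ZNF514. The part of these neighbours in the counts was not tested. Among the 38 tested members with no such overlap, 7 rose and 10 fell, with a median log2 fold change of -0.07. Over all tested genes, 22.1% rose and 23.2% fell.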

How the data were processed

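RNA from K562 cells was sequenced in 3 control and 3 hyperoside libraries, grouped by the treatment in the sample labels. The deposited counts are whole reads per gene, not normalised by the authors. The deposited FPKM values are those counts scaled by the authors to gene length and library total. A single implied length (within 0.01 base over the libraries) accounted for 99.96% of the 23241 genes with counts. The submitters' processing notes name fastp, HISAT2, HTSeq and hg38. Their settings and versions, the gene annotation and the use of strand are not given in the sources used here. Pathway and function annotations in the deposited tables were not used.

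The counts were fitted with edgeR 4.0.16 in R 4.3.3 (filterByExpr with a minimum count of 10 and minimum total of 15, TMM with factors of 0.957 to 1.03, quasi-likelihood test). Benjamini-Hochberg adjustment covered all 15095 tested genes, of which 3333 were higher and 3508 lower at an adjusted p under 0.05. The study named DESeq, and edgeR took its place here. The standard error is the log2 fold change divided by the square root of F. Alternatives used DESeq2 1.42.0 and limma 3.58.1, other scalings and filters, log2(FPKM + 1) and log2(FPKM + 0.1), a block for the replicate number and fits without each library in turn. Gene positions and promoters came from RefSeq (GRCh38.p14) and overlaps of exons from GENCODE 29. Named members were, in each subunit, up to 6 called in each direction with the smallest adjusted p, the 3 highest and 3 lowest control FPKM, untested members, and a fixed set of well-known proteins, and up to 3 in each direction from other lists. The members and lists were chosen with earlier results of these data known. Python 3.11.15, pandas 2.3.3, numpy 2.4.6 and matplotlib 3.10.9 were used.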

Additional observations from a re-analysis of the deposited data

How the results depend on the processing

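Of the 32 called members, 15 were called in the same direction in all 16 alternative fits, 7 higher and 8 lower, among them MRPS18A, MRPL20, MRPL55 and MRPS34. MRPL30, named after its values were seen, lost its call in 12 fits. Leaving out each library in turn gave 12 to 21 members called lower, 8 to 14 in the large and 3 to 7 in the small subunit, and 1 to 5 small subunit members called higher. At an adjusted p under 0.01, 7 members were higher and 12 lower, beside 15.4% and 16.6% of all tested genes. Among members with no exon overlap, which are fewer genes and were taken after seeing the data, 7 large subunit members were lower, and 1 small subunit member was higher and 3 were lower. The difference in the small to large ratio over all members, hyperoside minus control, was -0.0133 by place and 0.00462 with subunits by symbol alone. The fold change of MRPL12 changed sign to 0.00134 in limma-voom, 0.036 with upper quartile and 0.0476 with library totals scaling, 0.00382 without a filter, 0.0121 at a mean of at least 50 counts, 0.0495 and 0.0503 on log2(FPKM + 1) and log2(FPKM + 0.1), and 0.00111 with the replicate block. That of MRPL49 did so to 0.0130 with upper quartile, 0.0236 with library totals, 0.0229 on log2(FPKM + 1) and 0.0234 on log2(FPKM + 0.1). Leaving out libraries gave MRPL12 -0.102 to 0.117, MRPS12 -0.0626 to 0.202, MRPS28 -0.352 to 0.00532, MRPS36 -0.0258 to 0.102, MRPL49 -0.0942 to 0.0313 and MRPL11 -0.136 to 0.0415. The cause was not tested. Scaling by library totals moved the median of all genes to 0.05 and gave 3726 genes higher and 2958 lower. Labels number replicates 1 to 3 in both groups, but samples of the same number did not deviate together (correlations -0.0810, -0.0327 and -0.0342), so the numbers were not taken as pairs. With the replicate block 10 members were higher and 17 lower. All members but MRPS28 and MRPS24 had over 300 counts in every library.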

Other observations

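Several members that were not called share exons with a neighbour on the opposite strand that changed, all named after their values were seen. SEMA4G, beside MRPL43, had a log2 fold change of -1.37 (adjusted p = 8.27e-06), while MRPL43 had -0.14. SYVN1, beside MRPL49, had -0.73 (adjusted p = 8.14e-07), while MRPL49 had -0.03. COPB2, beside MRPS22, had -0.54 (adjusted p = 3.60e-06), while MRPS22 had -0.09. PELI3, beside MRPL11, had 0.57 (adjusted p = 0.0270), while MRPL11 had -0.07. ACTL6A, beside MRPL47, had -0.38 (adjusted p = 0.00129), while MRPL47 had 0.20.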
